A study of Mus musculus with 14 samples.

Results

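The genes described here cover cholesterol synthesis, uptake and efflux in mouse skin. They were chosen by name: 20 enzymes of the synthesis pathway, 4 genes of its feedback control, 3 genes of uptake and endosomal transport and 5 genes of storage, efflux and sterol sensing. All 32 had a row in each of 2 deposited expression tables of 24537 genes, and all 32 passed the filter on low values in both. The study asks how glucocorticoid signalling in regulatory T (Treg) cells bears on hair follicle stem cells (HFSC) and hair growth. Its 14 mRNA libraries came from sorted cells of mice whose hair had been pulled out, a treatment that starts a new hair cycle. In the GR KO mice (Foxp3YFP-Cre GRfl/fl) a Cre recombinase driven from the Foxp3 locus deletes the floxed glucocorticoid receptor gene Nr3c1 in Foxp3-expressing cells, so the HFSC of these mice are not the target of the deletion. The GR WT mice are labelled wild type, and whether they carried the Cre or the floxed allele is not given in the sources used here, nor are age, sex or strain. Treg cells were taken 1 day after depilation (5 GR KO and 3 GR WT libraries), and HFSC, sorted as CD34+ITGA6high cells, 4 days after it (3 GR KO and 3 GR WT libraries).

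Cells build cholesterol from acetyl-CoA. The mevalonate enzymes make isoprenoid units, squalene synthase joins these into squalene, and a series of ring closures, demethylations and reductions turns squalene into cholesterol. The genes of these enzymes are switched on together by the transcription factor encoded by Srebf2 when sterols in the endoplasmic reticulum run low, while the LXR receptors encoded by Nr1h2 and Nr1h3 respond to oxidised sterols and switch on efflux genes. In skin, cholesterol is made by the epidermis for its barrier and by sebaceous glands for sebum.

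Values are TPM, transcript abundance scaled to transcript length and library size, as deposited. The libraries held 9167600 to 14461500 recovered read tags for Treg cells and 4503900 to 7989730 for HFSC, the shallowest being HFSC GR WT replicate 1. Nr3c1, the deleted gene, stood at 106, 125, 106, 171 and 139 TPM in Treg GR KO, against 170.5, 233 and 229.7 TPM in Treg GR WT (log2 -0.71, SE 0.17, limma adjusted p = 0.0722). GR KO replicate 4 lay just above GR WT replicate 1, so the groups overlapped, and a sum over the whole transcript also counts exons that are not deleted. In HFSC the gene averaged 43.6 ± 6.89 TPM in GR KO and 41.6 ± 7.07 TPM in GR WT (SD, n = 3 each). Defining markers were present in the labelled cell types: the Treg factor gene Foxp3 averaged 171 ± 29.1 TPM in Treg GR KO and 227 ± 61.9 TPM in Treg GR WT but under 1 TPM in HFSC, where the bulge keratin gene Krt15 averaged 4026 ± 560.4 TPM in GR KO and 5558 ± 1491 TPM in GR WT. Krt15 was also found in Treg libraries, at 6.75 ± 7.61 TPM in GR KO and 164 ± 68.5 TPM in GR WT. HFSC libraries held sebocyte transcripts as well, given below.

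In HFSC from GR KO mice, transcripts of most cholesterol synthesis enzymes were more abundant than in HFSC from GR WT mice. For 16 of the 20 enzymes every GR KO library lay above every GR WT library, and for none did every one lie below. Over all 12493 genes tested in HFSC, 10.7% separated with GR KO above and 12.8% with GR KO below. Summed over the 20 enzymes, the level was 3165, 3607 and 3683 TPM in the GR KO libraries, against 2046, 2241 and 2385 TPM in the GR WT libraries. The median log2 fold change of the enzymes was 0.63, against -0.020 over all genes tested, and 18 of the 20 were positive.

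Fold changes here are differences of mean log2(TPM + 1) tested with limma, with Benjamini-Hochberg adjustment over all genes of a table. At an adjusted p of 0.05, 1 enzyme rose, beside 0.144% of all genes called higher, and at a looser adjusted p of 0.1, 10 of the 20 passed, all higher, beside 1.36% of all genes. Replicates are not stated to be separate mice, so these p-values measure the spread between libraries, which may be technical.

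**Figure D1:**
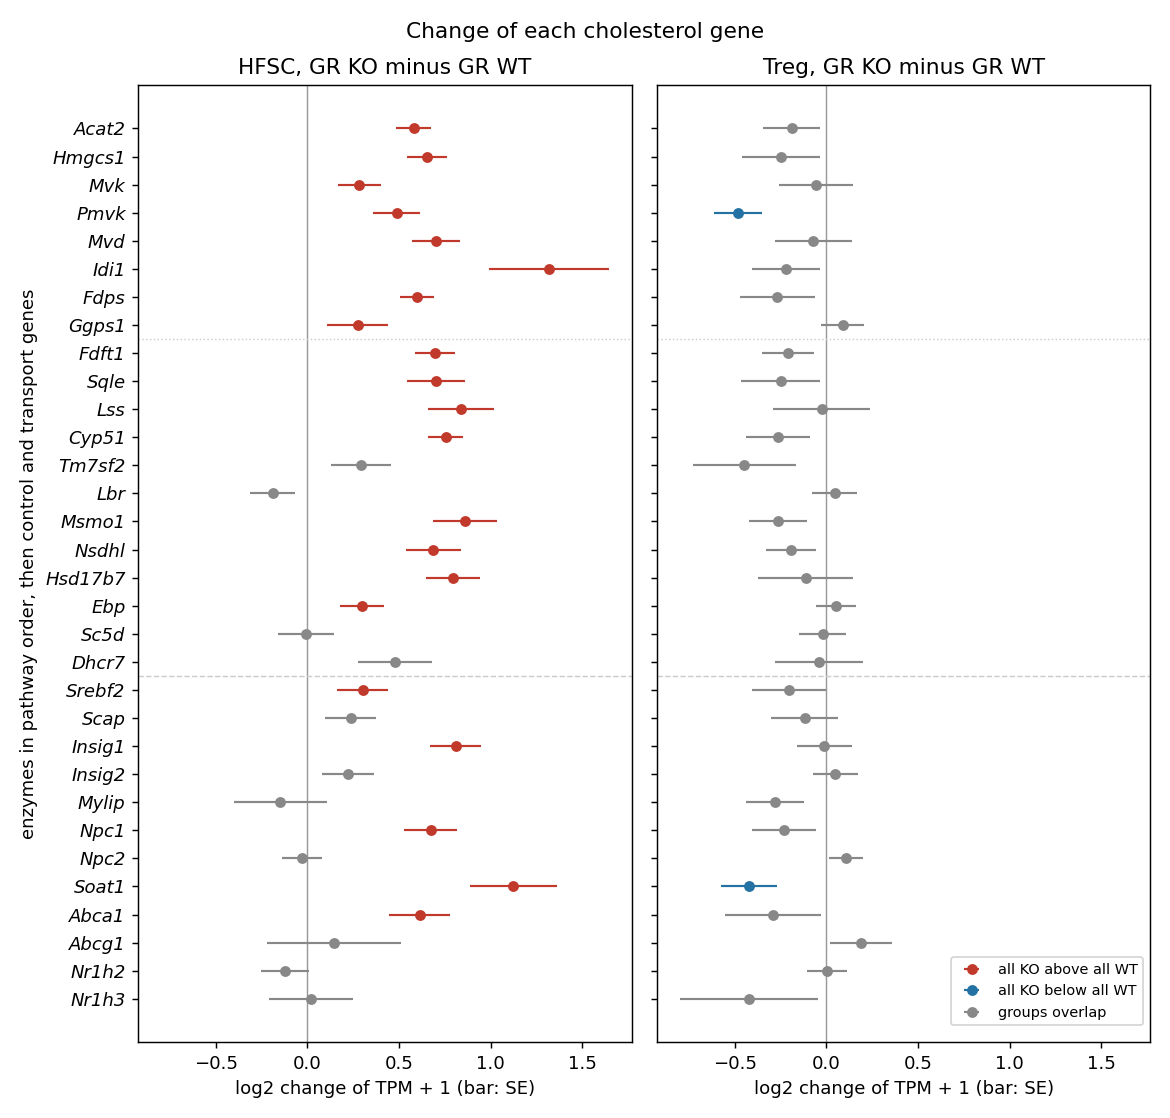
Log2 fold change (GR KO minus GR WT, with SE bars) of each of the 32 genes in HFSC (left, 3 and 3 libraries) and in Treg cells (right, 5 and 3 libraries), with enzymes in pathway order above the dashed line and control and transport genes under it. Red and blue mark genes whose libraries do not overlap between the groups: 21 of 32 lie higher in GR KO in HFSC, while 2 of 32 lie lower in Treg cells.

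The enzyme that passed was Cyp51, the lanosterol demethylase that takes the first step after ring closure. It had 181, 193 and 192 TPM in the GR KO libraries, against 104, 118 and 113 TPM in the GR WT libraries. The 3 GR KO libraries lay close together and well above the highest GR WT library (log2 0.75, SE 0.095, adjusted p = 0.0413, 95% interval 0.54 to 0.97). Leaving out any 1 of the 6 libraries kept the fold change between 0.70 and 0.79 but ended the call each time (adjusted p from 0.0594 to 0.173).

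Early in the pathway, Acat2 encodes the cytosolic thiolase that joins acetyl-CoA units, and Hmgcs1 the synthase that follows it. Acat2 had 176, 193 and 199 TPM in the GR KO libraries, against 133, 119 and 127 TPM in the GR WT libraries (log2 0.58, SE 0.10, adjusted p = 0.0660). Hmgcs1, the most abundant enzyme transcript of the list, had 631, 772 and 769.9 TPM in the GR KO libraries, against 460.5, 448 and 467 TPM in the GR WT libraries (log2 0.65, SE 0.11, adjusted p = 0.0603). In each of them the lowest GR KO library stood well above the highest GR WT library.

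The mevalonate kinases Mvk and Pmvk add phosphates, and Mvd then removes a carboxyl group to give the isoprenoid unit. Mvk had 66.6, 75.9 and 78.2 TPM in GR KO, against 57.7, 66.4 and 56.7 TPM in GR WT (log2 0.28, SE 0.12, adjusted p = 0.274). Pmvk had 197, 225 and 194 TPM in GR KO, against 168, 126 and 146 TPM in GR WT (log2 0.49, SE 0.13, adjusted p = 0.127). Mvd had 161, 199 and 209.6 TPM in GR KO, against 106, 112 and 129.5 TPM in GR WT (log2 0.70, SE 0.13, adjusted p = 0.0700). Groups did not overlap in any of the 3 genes. The gap for Mvk was small, with GR KO replicate 1 just above GR WT replicate 2, and of these genes Mvd alone passed at 0.1.

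Idi1, the isomerase of isoprenoid units, showed the largest fold change of the 32 genes, with a large error. It had 40.7, 54.1 and 54.4 TPM in the GR KO libraries, against 10.2, 25.7 and 26.5 TPM in the GR WT libraries (log2 1.32, SE 0.33, adjusted p = 0.118). GR WT replicate 1 was less than 50% of either other GR WT library, and without it the log2 fold change was 0.89. Fdps, which builds farnesyl diphosphate, had 407, 423 and 405 TPM in GR KO, against 263, 258 and 295 TPM in GR WT (log2 0.60, SE 0.093, adjusted p = 0.0565), with GR KO libraries close together and all above GR WT. Ggps1 leads away from sterols to the lipid anchors of small GTPases. It was at 12.7, 11.9 and 10.5 TPM in GR KO, against 10.4, 8.43 and 9.76 TPM in GR WT (log2 0.27, SE 0.17, adjusted p = 0.451), where the lowest GR KO library exceeded the highest GR WT library by little.

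**Figure D2:**
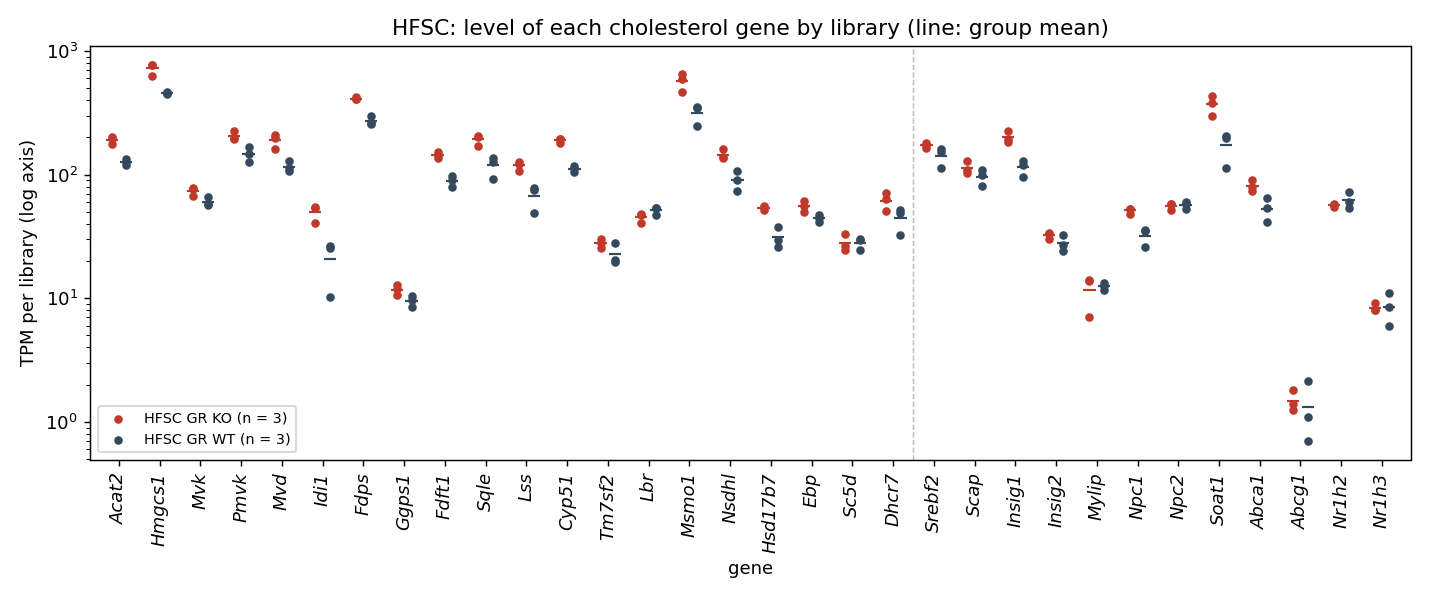
TPM of each of the 32 genes in each HFSC library on a log axis, with GR KO (red, n = 3) left of GR WT (dark, n = 3) and short lines at the group means. The red points sit wholly above the dark ones for 16 of the 20 enzymes left of the dashed line and for 5 of the 12 genes right of it.

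From farnesyl diphosphate to the sterol ring, squalene synthase (Fdft1), squalene epoxidase (Sqle) and lanosterol synthase (Lss) act in turn. Fdft1 had 137, 144 and 151 TPM in GR KO, against 79.0, 96.9 and 90.5 TPM in GR WT (log2 0.70, SE 0.11, adjusted p = 0.0565). Sqle had 169, 202 and 205 TPM in GR KO, against 92.8, 127 and 137 TPM in GR WT (log2 0.70, SE 0.16, adjusted p = 0.103). Lss had 107, 127 and 122 TPM in GR KO, against 48.7, 75.3 and 77.7 TPM in GR WT (log2 0.84, SE 0.18, adjusted p = 0.0903). No library of one group reached into the other, and GR WT replicate 1 was the lowest library for each. Fdft1 shares 773 bases with Ctsb on the opposite strand in the deposited coordinates, and whether counting used the strand is not given in the sources used here. The fold change of Ctsb was -0.27 (adjusted p = 0.1997), opposite in sign to that of Fdft1.

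The demethylating enzymes Msmo1, Nsdhl and Hsd17b7 trim the ring after Cyp51. Msmo1 had 465, 592 and 651 TPM in GR KO, against 246, 343 and 354 TPM in GR WT (log2 0.86, SE 0.17, adjusted p = 0.0782). Nsdhl had 139, 136 and 161 TPM in GR KO, against 73.3, 91.1 and 107 TPM in GR WT (log2 0.69, SE 0.15, adjusted p = 0.0909). Hsd17b7 had 51.4, 55.3 and 54.9 TPM in GR KO, against 25.7, 29.7 and 37.5 TPM in GR WT (log2 0.79, SE 0.15, adjusted p = 0.0700). All 3 passed at 0.1 and separated fully, again with GR WT replicate 1 the lowest library.

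The 4 enzymes whose groups overlapped all act after Cyp51. Lbr and Tm7sf2 encode reductases for the same ring double bond, and Lbr is also the lamin B receptor of the nuclear envelope. Lbr was at 48.1, 40.4 and 46.9 TPM in GR KO, against 46.7, 54.1 and 53.9 TPM in GR WT (log2 -0.19, SE 0.12, adjusted p = 0.478), and Tm7sf2 at 30.1, 27.9 and 25.4 TPM in GR KO, against 19.7, 20.4 and 28.1 TPM in GR WT (log2 0.29, SE 0.16, adjusted p = 0.418). The 95% interval of the fold change was -0.47 to 0.090 for Lbr and -0.086 to 0.67 for Tm7sf2. Sc5d, a desaturase near the end of the pathway, averaged 28.0 ± 4.27 TPM in GR KO and 28.0 ± 3.04 TPM in GR WT (SD, n = 3 each, log2 -0.0059, interval -0.35 to 0.34, adjusted p = 0.990). Dhcr7, the last reductase, had 62.9, 50.4 and 71.3 TPM in GR KO, against 32.2, 49.2 and 51.6 TPM in GR WT (log2 0.48, SE 0.20, adjusted p = 0.287), with GR KO replicate 2 inside the GR WT range. Without GR WT replicate 1 its log2 fold change was 0.27. Ebp, the isomerase before Sc5d, did separate, at 49.5, 61.2 and 55.2 TPM in GR KO, against 44.7, 41.7 and 47.5 TPM in GR WT (log2 0.30, SE 0.12, adjusted p = 0.269).

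The stretches upstream of the enzymes' start sites were searched because the genes moved together. RefSeq promoters (GRCm38.p6, the same assembly as the mm10 named by the submitters) matched 27 of the 32 genes. Fdps, Fdft1, Sqle, Npc1 and Abcg1 had none in the table, and for Pmvk the start lay 453 bases from that of the deposited transcript. The 250 bases before the start were read on both strands for CCAAT, the box bound by NF-Y, and for TCACNCCAC, a core of the sterol regulatory element bound by SREBP factors. No match of one pattern overlapped a match of the other in these genes. Of 17 enzymes with a promoter, 14 held CCAAT (82.4%), against 33.8% of all 32851 promoters in the table and 36.9% of the 9331 genes tested in HFSC that had one. Of the 10 other genes of the 32 with a promoter, 6 held it (60%). Among enzymes whose libraries separated in HFSC the count was 11 of 13, and among those that overlapped 3 of 4. TCACNCCAC was found in 1 of the 17, against 1.05% of all promoters. A match is a description of letters, not of binding, and the strict pattern misses variant sites.

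The stretches of 6 enzymes are shown 5′ to 3′, with bases of either pattern, or its reverse complement, in capitals, and the last base next to the start site. Hmgcs1 is the only one with TCACNCCAC, at -137 to -129, beside 3 CCAAT boxes. Cyp51 passed the test with a single box, Idi1 had the largest change, Lss and Msmo1 separated fully, and Lbr, which overlapped between the groups, holds 2 boxes.
Hmgcs1 (chr13:119690101-119690350, plus strand): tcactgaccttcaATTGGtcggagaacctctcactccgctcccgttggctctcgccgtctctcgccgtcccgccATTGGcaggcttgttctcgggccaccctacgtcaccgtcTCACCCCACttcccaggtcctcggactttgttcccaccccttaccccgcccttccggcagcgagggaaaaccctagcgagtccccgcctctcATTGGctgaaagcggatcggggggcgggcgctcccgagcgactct
Idi1 (chr13:8885356-8885605, plus strand): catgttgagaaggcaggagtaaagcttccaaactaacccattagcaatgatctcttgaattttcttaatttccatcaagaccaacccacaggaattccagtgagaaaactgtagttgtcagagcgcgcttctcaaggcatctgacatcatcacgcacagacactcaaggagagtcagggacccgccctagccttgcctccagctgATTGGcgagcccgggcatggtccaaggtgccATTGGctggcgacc
Lss (chr10:76531355-76531604, plus strand): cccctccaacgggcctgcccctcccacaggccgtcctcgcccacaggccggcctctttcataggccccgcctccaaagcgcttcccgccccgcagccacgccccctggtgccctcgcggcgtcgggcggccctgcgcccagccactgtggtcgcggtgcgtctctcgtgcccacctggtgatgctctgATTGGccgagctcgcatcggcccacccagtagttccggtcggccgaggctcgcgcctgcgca
Cyp51 (chr5:4104698-4104947, minus strand): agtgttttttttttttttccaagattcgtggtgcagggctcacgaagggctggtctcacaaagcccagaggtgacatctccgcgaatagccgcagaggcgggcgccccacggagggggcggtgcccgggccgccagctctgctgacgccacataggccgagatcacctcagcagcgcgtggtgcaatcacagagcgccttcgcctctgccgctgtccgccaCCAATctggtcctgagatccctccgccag
Msmo1 (chr8:64733579-64733828, minus strand): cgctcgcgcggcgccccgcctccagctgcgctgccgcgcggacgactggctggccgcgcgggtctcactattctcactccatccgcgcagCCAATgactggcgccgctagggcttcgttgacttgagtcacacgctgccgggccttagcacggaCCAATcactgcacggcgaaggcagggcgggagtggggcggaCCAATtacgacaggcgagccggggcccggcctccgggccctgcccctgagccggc
Lbr (chr1:181842402-181842651, minus strand): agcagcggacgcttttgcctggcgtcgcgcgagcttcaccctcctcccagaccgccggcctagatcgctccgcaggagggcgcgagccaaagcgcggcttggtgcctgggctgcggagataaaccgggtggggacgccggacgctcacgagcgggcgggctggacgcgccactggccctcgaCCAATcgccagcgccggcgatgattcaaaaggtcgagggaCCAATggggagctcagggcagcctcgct

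All 4 genes of feedback control had positive fold changes. Of them 2 separated with GR KO above, beside 10.7% of all genes, and 1 passed at 0.1, beside 1.36%. Insig1 encodes the membrane protein that holds the SREBP escort in the endoplasmic reticulum and is itself a target of SREBP factors. It had 182, 224 and 194 TPM in the GR KO libraries, against 94.9, 120.4 and 128 TPM in the GR WT libraries (log2 0.81, SE 0.14, adjusted p = 0.0674), a full separation. Its relative Insig2 was at 30.2, 33.2 and 33.8 TPM in GR KO, against 24.1, 32.5 and 26.8 TPM in GR WT (log2 0.22, SE 0.14, adjusted p = 0.476), with GR WT replicate 2 inside the GR KO range. Srebf2, the gene of the factor itself, had 164, 174 and 179.8 TPM in GR KO, against 113, 161 and 151 TPM in GR WT (log2 0.30, SE 0.14, adjusted p = 0.330). Its groups did not overlap, but GR WT replicate 2 came close to GR KO replicate 1, and without GR WT replicate 1 the log2 fold change was 0.15. Scap, which encodes the escort, averaged 113 ± 13.6 TPM in GR KO and 96.1 ± 13.8 TPM in GR WT (adjusted p = 0.434).

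Among genes of uptake, transport and storage, those with higher levels in GR KO were Npc1 and Soat1. Npc1 encodes the membrane protein that moves cholesterol out of late endosomes and had 53.0, 47.8 and 53.1 TPM in GR KO, against 25.9, 35.6 and 34.8 TPM in GR WT (log2 0.67, SE 0.15, adjusted p = 0.0909). The row of Npc1 shares 276 bases with 3110002H16Rik on the opposite strand, whose fold change was 0.39 (adjusted p = 0.262). The soluble partner Npc2 averaged 55.7 ± 3.40 TPM in GR KO and 56.8 ± 3.64 TPM in GR WT (SD, n = 3 each, log2 -0.028, interval -0.28 to 0.22). Soat1, the enzyme that esterifies cholesterol for storage, had 297, 376 and 434 TPM in the GR KO libraries, against 113, 198 and 206 TPM in the GR WT libraries (log2 1.12, SE 0.24, adjusted p = 0.0858). Its groups were far apart although each was spread, and its fold change without GR WT replicate 1 was 0.84. Mylip, which encodes a ligase that degrades lipoprotein receptors, averaged 11.7 ± 4.00 TPM in GR KO and 12.5 ± 0.797 TPM in GR WT (adjusted p = 0.810), with GR KO replicate 3 alone at 7.05 TPM.

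By limma on TPM, efflux and sensing genes did not pass at 0.1. Abca1, which encodes the transporter that loads cholesterol onto apolipoproteins, had 79.4, 73.1 and 89.6 TPM in GR KO, against 41.2, 64.3 and 53.8 TPM in GR WT (log2 0.61, SE 0.17, adjusted p = 0.143) and separated fully. With voom on the recovered tags its adjusted p was 0.0387. Abcg1, a transporter with a related role, was low, at 1.40, 1.24 and 1.81 TPM in GR KO, against 2.13, 1.09 and 0.703 TPM in GR WT, a mean of 26.3 tags per GR WT library. The LXR genes overlapped between the groups: Nr1h2 averaged 56.3 ± 1.25 TPM in GR KO and 61.9 ± 9.60 TPM in GR WT (interval -0.42 to 0.17) and Nr1h3 8.41 ± 0.599 TPM in GR KO and 8.50 ± 2.56 TPM in GR WT (interval -0.51 to 0.55).

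Over the 12 genes outside the enzymes, 3 passed at 0.1, Insig1, Npc1 and Soat1, and 5 separated with GR KO above. In all, 13 of the 32 genes (40.6%) passed at 0.1 and 21 (65.6%) separated, against the 1.36% and 10.7% of all genes given above. The count at 0.1 changed whichever library was left out. It was 8 without GR KO replicate 1 and 16 without GR WT replicate 1. Without GR KO replicate 2, GR KO replicate 3, GR WT replicate 2 or GR WT replicate 3 it was 0. Over all genes, calls at 0.05 also fell in these smaller fits, from 22 to between 0 and 5. With voom on the recovered read tags, a count-based test of the same libraries, 16 of the 32 passed at 0.05, all higher, where it called 483 genes in all and limma on TPM 22. The median log2 fold change of the enzymes stayed between 0.58 and 0.67 over the 6 omissions.

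Sebocyte transcripts moved with the enzymes in the same libraries. The summed TPM of 13 sebocyte markers was 8423 to 11012 TPM in GR KO and 4095 to 6031 TPM in GR WT. All 13 had positive fold changes (median 0.77), and 10 separated with GR KO above, beside 10.7% of all genes. Of the 13, 1 rose at an adjusted p of 0.05, beside 0.144% of all genes, and 6 passed at 0.1, beside 1.36%. The 1 past 0.05 was Plin2, a lipid droplet coat gene, at 1186 ± 83.5 TPM in GR KO and 699 ± 51.9 TPM in GR WT (log2 0.76, SE 0.10, adjusted p = 0.0459), and that call ended when any library was left out. The fatty acid desaturase gene Scd1 averaged 4502 ± 422 TPM in GR KO and 2451 ± 594 TPM in GR WT (adjusted p = 0.0829). Mean log2(TPM + 1) of the enzymes was 6.67, 6.76 and 6.79 in GR KO replicates 1 to 3, against 6.01, 6.22 and 6.33 in GR WT replicates 1 to 3. For the sebocyte markers it was 7.40, 7.75 and 7.96 in GR KO and 6.42, 7.11 and 7.03 in GR WT in the same order. Each set was lowest in GR WT replicate 1, the lowest library of all 6 for 12 of the 20 enzymes. That library also stood apart on the first principal component, which carried 37.7% of the variance, at 59.8, against -17.7 to -4.02 in the other libraries. The part that sebocyte transcripts play in the enzyme difference was not tested, and in bulk libraries more cells of a type cannot be told apart from more RNA per cell.

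**Figure D3:**
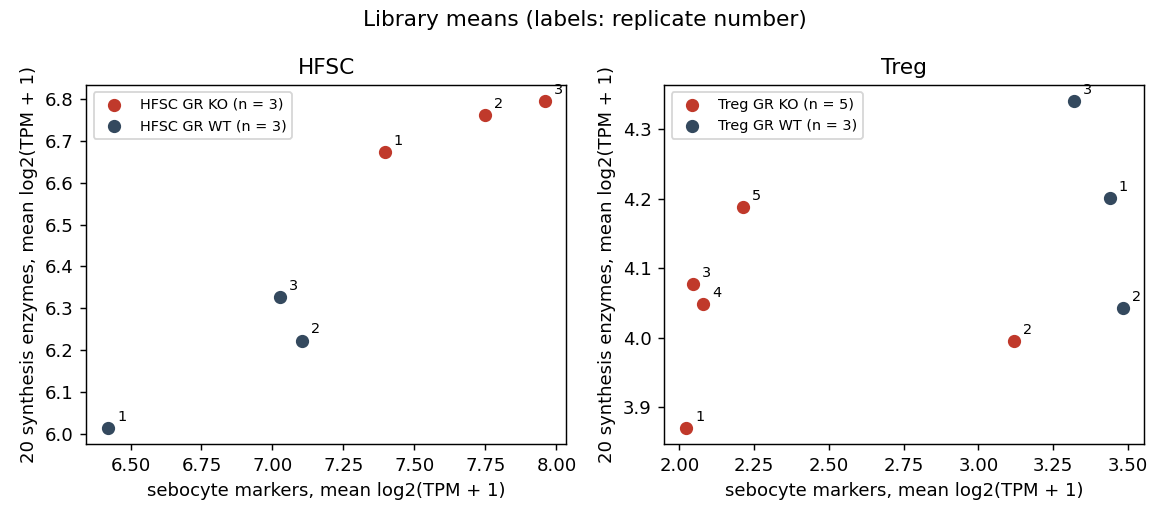
Mean log2(TPM + 1) of the 20 enzymes (vertical) against that of the tested sebocyte markers (horizontal; 13 in HFSC, 10 in Treg cells) in each library, with replicate numbers beside the points. In HFSC the 3 GR KO libraries lie above and to the right of the 3 GR WT libraries, with GR WT replicate 1 lowest on both axes, while in Treg cells the groups separate along the horizontal axis and overlap along the vertical.

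Of 12 keratinocyte markers 0 were higher and 1 lower at 0.1 in HFSC, beside 0.568% of all genes lower, and of 10 bulge stem cell markers likewise 0 and 1. In each list 3 separated with GR KO below and 0 with GR KO above, beside 12.8% of all genes below. The 3 bulge stem cell markers were Lhx2, Tbx1 and Nfatc1. Fold changes were negative for 8 of the 12 and 7 of the 10. Keratinocyte markers summed to 14936 to 17177 TPM in GR KO and 19822 to 21828 TPM in GR WT, and bulge stem cell markers to 5332 to 7014 TPM in GR KO and 6759 to 9439 TPM in GR WT. Macrophage and monocyte markers summed to 5.20 to 7.27 TPM in GR KO and 3.29 to 21.0 TPM in GR WT. Among them Ms4a7 was at 0 in every library, while Cd68 averaged 4.04 ± 1.18 TPM in GR KO and 3.94 ± 1.52 TPM in GR WT. Endothelial markers summed to 2.40 to 8.68 TPM in GR KO and 6.78 to 12.9 TPM in GR WT.

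By limma, 28 further genes of sterol handling were tested in HFSC. At an unadjusted p under 0.05, 8 were higher and 1 lower, beside 7.8% higher and 8.8% lower of all genes. After adjustment 0 passed at 0.05 and 3 at 0.1, all higher, beside 1.36% of all genes. The 3 were Acss2, an acetyl-CoA synthetase gene (235 ± 13.6 TPM in GR KO and 149.7 ± 24.6 TPM in GR WT, log2 0.66, adjusted p = 0.0776), Gramd1a, a sterol transfer gene of the endoplasmic reticulum (log2 0.70, adjusted p = 0.0749), and Lpcat3, a phospholipid acyltransferase gene (log2 0.74, adjusted p = 0.0782). The median of the list was 0.12. Of 12 genes that use isoprenoid units for other products, 0 passed at 0.05 or at 0.1 by limma, and 4 had an unadjusted p under 0.05, all higher, beside the same 7.8% of all genes. The smallest p values belonged to Pdss1, a ubiquinone side chain gene (109 ± 33.7 TPM in GR KO and 52.0 ± 16.1 TPM in GR WT, adjusted p = 0.123), and to Nus1 and Pdss2 (log2 0.43 and 0.37, adjusted p = 0.217 and 0.240).

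In Treg cells from GR KO mice, none of the 32 cholesterol genes passed. Limma called 0 of the 32 at 0.05, beside 1.51% of the 11579 genes tested, and 0 at 0.1, beside 2.37% of them, while 2 had an unadjusted p under 0.05, beside 14.1% of them. The median log2 fold change of the enzymes was -0.19, against -0.040 over all genes. It lay between -0.27 and -0.100 with each library left out, nearest to 0 without GR WT replicate 3. Of the 20, 17 were negative, and the enzyme sum was 421, 442, 458, 469.6 and 509.7 TPM in GR KO, against 511, 461 and 554 TPM in GR WT, so the groups overlapped. The 95% interval of every enzyme lay under a log2 change of 1, and for 30 of the 32 genes it lay between -1 and 1. A p that misses the threshold does not show equal levels, but a doubling of any enzyme in these libraries lies outside these intervals. The libraries also held transcripts of other skin cells, more in GR WT (given below). The intervals therefore do not bound a change within the Treg cells alone.

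The 2 genes whose Treg libraries did not overlap were both lower in GR KO, beside 5.1% of all genes tested. Pmvk had 16.5, 17.7, 17.6, 15.1 and 16.7 TPM in the GR KO libraries, against 26.2, 20.2 and 25.3 TPM in the GR WT libraries (log2 -0.48, SE 0.13, adjusted p = 0.126). Soat1 had 12.1, 15.5, 13.4, 17.9 and 15.1 TPM in the GR KO libraries, against 18.6, 23.0 and 18.7 TPM in the GR WT libraries (log2 -0.42, SE 0.15, adjusted p = 0.247). Each is the reverse of its direction in HFSC. Cyp51 was at 33.8, 29.8, 33.3, 38.7 and 46.9 TPM in GR KO, against 42.2, 35.2 and 55.4 TPM in GR WT (log2 -0.27, SE 0.17, adjusted p = 0.529), and Hmgcs1 at 31.9, 33.1, 41.3, 50.5 and 49.1 TPM in GR KO, against 40.2, 40.3 and 69.3 TPM in GR WT (log2 -0.25, SE 0.21, adjusted p = 0.640). In each of them GR WT replicate 3 was the highest library and the others overlapped. Without that replicate the log2 fold change was -0.10 for Cyp51 and 0.0077 for Hmgcs1.

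Over all 32 genes, log2 fold changes in Treg cells ran from -0.48 for Pmvk to 0.19 for Abcg1. Tm7sf2 and Nr1h3, each at a few TPM or less, had the widest intervals, -1.06 to 0.17 and -1.25 to 0.41. Insig1 averaged 49.1 ± 6.98 TPM in GR KO and 49.6 ± 9.52 TPM in GR WT (SD, n = 5 and 3, interval -0.34 to 0.32). Srebf2 averaged 47.4 ± 7.80 TPM in GR KO and 56.3 ± 18.9 TPM in GR WT (interval -0.65 to 0.24). Npc2, the most abundant of the 32 in Treg cells, averaged 203 ± 13.3 TPM in GR KO and 189 ± 18.1 TPM in GR WT (interval -0.10 to 0.31). Abca1 averaged 2.85 ± 0.982 TPM in GR KO and 3.64 ± 0.834 TPM in GR WT (interval -0.87 to 0.28), and Abcg1 13.2 ± 1.79 TPM in GR KO and 11.5 ± 2.37 TPM in GR WT (interval -0.18 to 0.56).

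**Figure D4:**
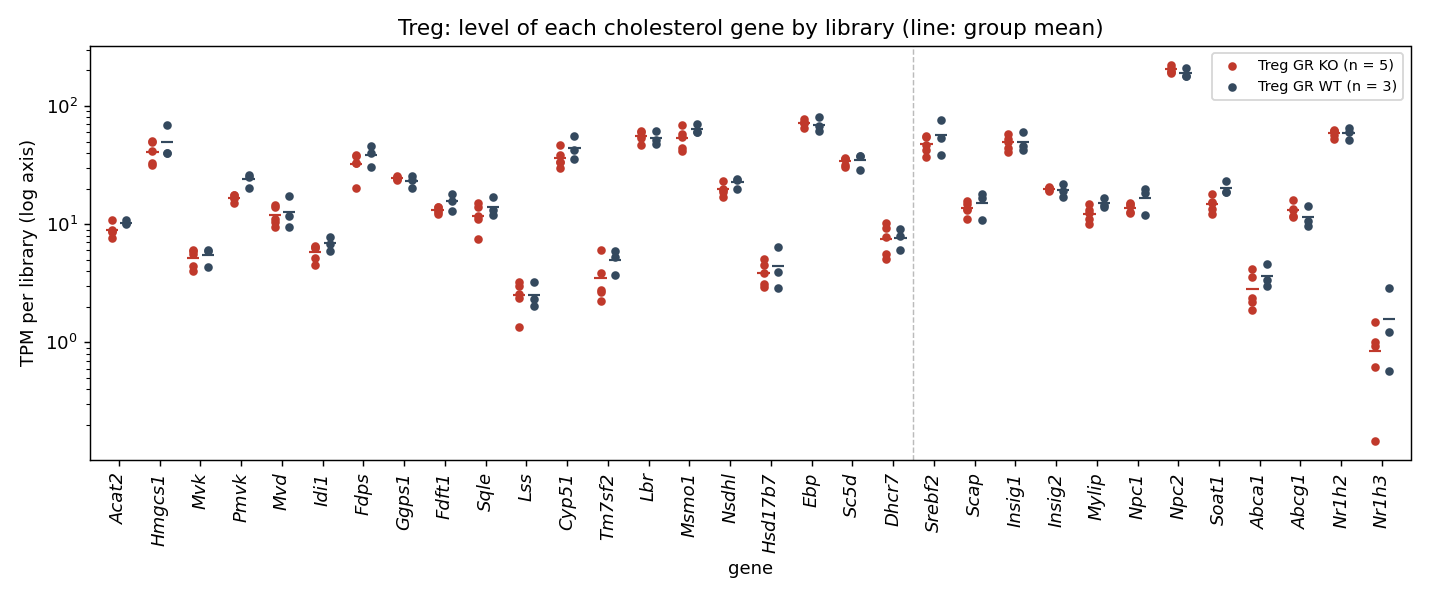
TPM of each of the 32 genes in each Treg library on a log axis, with GR KO (red, n = 5) left of GR WT (dark, n = 3) and short lines at the group means. The groups overlap for 30 of the 32 genes, and the exceptions are Pmvk and Soat1, where the red points lie below the dark ones.

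Transcripts of other skin cells differed between the Treg groups in the same libraries. Macrophage and monocyte markers summed to 66.3 to 182 TPM in GR KO and 218 to 389.7 TPM in GR WT, keratinocyte markers to 33.6 to 125 TPM in GR KO and 301 to 486 TPM in GR WT, hair follicle stem cell markers to 44.5 to 69.2 TPM in GR KO and 246 to 379.8 TPM in GR WT, and sebocyte markers to 90.7 to 156 TPM in GR KO and 169 to 178 TPM in GR WT. Of the markers tested, 6 of 12, 7 of 11, 3 of 5 and 4 of 10 fell at 0.05 in the same order, beside 1.31% of all genes. The 3 stem cell markers were Krt15 (6.75 ± 7.61 TPM in GR KO and 164 ± 68.5 TPM in GR WT, log2 -4.76, adjusted p = 0.00214), Postn and Cd34. GR WT replicate 3 stood farthest out on the first principal component, at 52.1, against 12.3 and 22.9 in the other GR WT libraries. Soat1 averaged 173 TPM and Pmvk 147 TPM in HFSC GR WT, well above their Treg levels. In GR WT, 16 of the 20 enzymes were likewise higher in every HFSC library than in every Treg library. Ratios of HFSC to Treg were 8.57 for Soat1 and 6.14 for Pmvk, against 26.5 for Lss and 12.3 for Acat2. The Treg log2 fold changes of Lss and Acat2 were -0.025 and -0.19. The part of transcripts of other skin cells in the Treg differences was not tested. Outside the 32, 1 of 26 tested sterol handling genes rose in Treg cells, beside 0.199% of all genes. This was Stard4, which encodes a sterol transfer protein, at 44.7 ± 5.04 TPM in GR KO and 22.4 ± 3.81 TPM in GR WT (SD, n = 5 and 3, log2 0.97, SE 0.14, adjusted p = 0.00546). Its call ended with the replicate number as a block (adjusted p = 0.0982). That fit compares replicates 1 to 3 only, as GR KO replicates 4 and 5 have no GR WT library of their number. In HFSC Stard4 averaged 28.7 ± 5.07 TPM in GR KO and 16.9 ± 3.40 TPM in GR WT (adjusted p = 0.128). Of the 12 other isoprenoid genes 0 passed in Treg cells by limma at either threshold, with 1 at an unadjusted p under 0.05, Coq2 (log2 0.45, adjusted p = 0.331). The next by p were Pdss1 (log2 -0.70, adjusted p = 0.389) and Icmt (log2 -0.25, adjusted p = 0.630).

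Levels of the pathway differed between the HFSC and Treg libraries, given here as description since the tables were made separately. Sampling day differed as well, being day 1 for every Treg library and day 4 for every HFSC library. Cell type and day therefore cannot be separated here. Sebocyte markers summed to 4095 to 6031 TPM in HFSC GR WT and 169 to 178 TPM in Treg GR WT. The part of sebocyte transcripts in the level differences was not tested. In GR WT libraries, 16 of the 20 enzymes were higher in every HFSC library than in every Treg library, 2 were lower and 2 overlapped. The median ratio of HFSC to Treg was 5.75. Lss had the largest ratio among the enzymes, at 67.2 ± 16.1 TPM in HFSC and 2.54 ± 0.623 TPM in Treg cells (SD, n = 3 each). Ebp stood the other way, at 41.7 to 47.5 TPM in HFSC and 61.0 to 80.5 TPM in Treg cells, as did Ggps1. For Ggps1, Mvk, Scap and Nr1h2 the tables list different transcripts, of 5245 bases in HFSC and 3444 in Treg cells for Ggps1, which alone changes the TPM of a given number of tags. Lbr was level, at 51.6 ± 4.20 TPM in HFSC and 53.9 ± 7.12 TPM in Treg cells, and Sc5d overlapped as well. The efflux transporters were opposed. Abca1 averaged 53.1 ± 11.6 TPM in HFSC and 3.64 ± 0.834 TPM in Treg cells, while Abcg1 averaged 1.31 ± 0.738 TPM in HFSC and 11.5 ± 2.37 TPM in Treg cells.

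**Figure D5:**
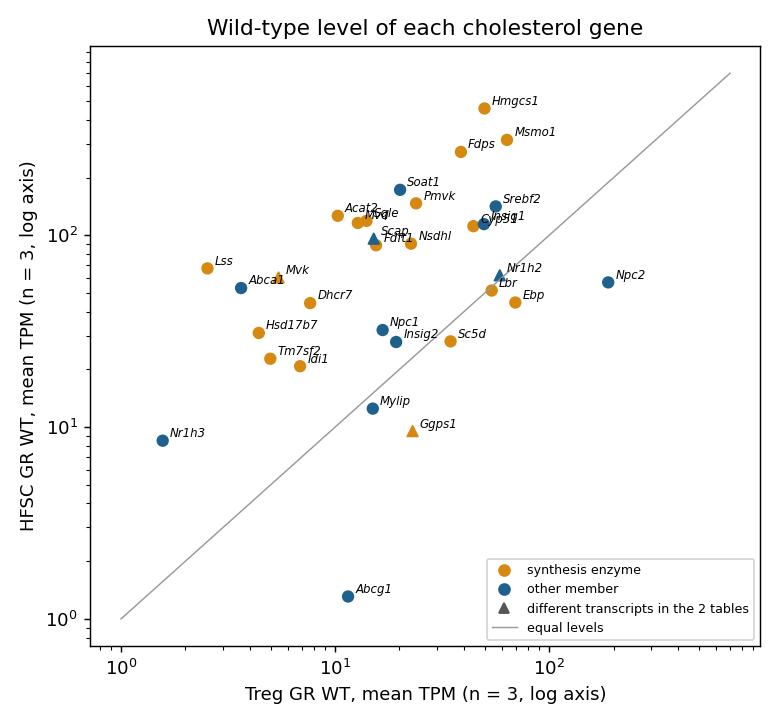
Mean TPM of each of the 32 genes in HFSC GR WT (vertical) against Treg GR WT (horizontal), both on log axes with 3 libraries each; the line marks equal levels, orange points are enzymes, and triangles mark genes listed with different transcripts in the 2 tables. Most enzymes lie above the line, with Lss farthest from it among them, and Abcg1 and Npc2 lie far below it.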

How the data were processed

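Per the labels' protocols, RNA of sorted cells went into strand-marking mRNA libraries. Trim Galore, FastQC, STAR and HOMER were named with the mm10 genome in the submitters' processing notes, without versions. The deposited values are TPM, which the authors computed for 1 transcript per gene, per the file headers. Both tables list 24537 rows, and their TPM sum to between 639752 and 668742 per library. Each row also holds other descriptive values, such as the transcript's length, deposited by the authors.

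Each cell type was fitted alone with limma 3.58.1 in R 4.3.3 (limma-trend on log2(TPM + 1), genes averaging 1 TPM or more, Benjamini-Hochberg adjustment), since the tables were made separately. A pseudocount understates the change of low genes. Multiplying TPM by transcript length gave whole read tags for 100% of the low values tested, within 0.1 tag. Of these recovered values 74.5% to 82.9% were even, so a tag may not be an independent fragment, which bears on the floor and on voom. A floor of 3 tags on a transcript of 2000 bases corresponds to 0.138 to 0.207 TPM in Treg cells and 0.308 to 0.515 TPM in HFSC, for counting error only. Alternatives were other pseudocounts and filters, median ratio scaling, voom on the recovered tags, a replicate block and leaving out each library. All 32 genes were named. For the further sterol and isoprenoid lists, genes past 0.05 were named or, with none, those with the smallest p; marker lists were summarised, with examples chosen after their values were seen. The genes and lists were chosen with earlier results of these data known.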

Additional observations from a re-analysis of the deposited data

Results flagged for a closer look

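Pmvk and Soat1 differed in opposite directions in the 2 cell types, with every GR KO library on one side of every GR WT library in each. For Pmvk, the mevalonate pathway kinase gene, the log2 fold change was 0.49 in HFSC (SE 0.13, limma adjusted p = 0.127) and -0.48 in Treg cells (SE 0.13, limma adjusted p = 0.126). For Soat1, the cholesterol esterification gene, it was 1.12 in HFSC (SE 0.24, limma adjusted p = 0.0858) and -0.42 in Treg cells (SE 0.15, limma adjusted p = 0.247). Neither gene passed at 0.05 in either cell type, and in Treg cells they were the 2 of 32 that separated with GR KO below, a share near the 5.1% of all genes. The difference between the cell types was not tested, as each table was fitted alone, and the cell types also differ in time after depilation. In Treg cells, keratinocyte markers summed to 33.6 to 125 TPM in GR KO and 301 to 486 TPM in GR WT. Hair follicle stem cell markers likewise summed lower in GR KO. The part of such transcripts in the Treg differences of Pmvk and Soat1 was not tested. No library of the 5 in Treg GR KO stood apart from the others for any of the 32 genes by Dixon's criterion.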

How the results depend on the processing

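In HFSC, limma called 22 genes (18 higher), of them 1 of the 32. Without a filter on low values these counts were 2 and 0, with genes under 5 TPM on average left out 48 (38 higher) and 4, with median ratio scaling 68 (62 higher) and 5, with voom 483 (240 higher) and 16, and with the replicate block 66 (61 higher) and 4. At 0.1, 13 of the 32 passed, against 4 without a filter. Leaving out each library gave 0 to 5 genes called, 0 of the 32 at 0.05 and 0 to 16 at 0.1. The enzyme median was 0.57 to 0.64 over the other settings. In Treg cells, 175 genes were called, 78 (4 higher) with the replicate block and 84 to 186 with each library left out, lowest without GR WT replicates 1 (107) and 3 (84). Of the 32, 0 passed at 0.1 except 1, Pmvk, without GR WT replicate 2. The cause of these shifts was not tested. With the block, Treg GR KO replicates 4 and 5 do not enter the comparison, having no GR WT library of their number. The main fits did not use the replicate numbers as pairs. After centring within each group, same-numbered libraries correlated at -0.12 to 0.17 in Treg cells and -0.042 to 0.062 in HFSC. So few correlations show no clear pairing but cannot exclude one.

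Signs turned for members with a log2 fold change of at most 0.25 in size in Treg cells (Hmgcs1) and 0.15 in HFSC (Mylip). In Treg cells these were Sc5d (0.0079 with median ratio scaling, 0.034 with voom, 0.0022 with the block), Insig1 (0.019 with scaling, 0.045 with voom), Mvd (0.023 with voom) and Lbr (-0.0025 with the block). In HFSC they were Sc5d (0.0071 with scaling) and Nr1h3 (-0.071 with voom). With each library left out, log2 fold changes that changed sign ranged as follows in Treg cells: Hmgcs1 -0.38 to 0.0077, Mvk -0.19 to 0.017, Mvd -0.25 to 0.15, Ggps1 -0.0011 to 0.16, Lss -0.13 to 0.11, Lbr -0.034 to 0.15, Hsd17b7 -0.33 to 0.14, Ebp -0.037 to 0.16, Sc5d -0.15 to 0.045, Dhcr7 -0.18 to 0.073, Srebf2 -0.44 to 0.038, Scap -0.33 to 0.010, Insig1 -0.12 to 0.14, Insig2 -0.036 to 0.13, Nr1h2 -0.083 to 0.073. In HFSC the ranges were Sc5d -0.12 to 0.074, Mylip -0.31 to 0.15, Npc2 -0.078 to 0.023, Abcg1 -0.051 to 0.39, Nr1h3 -0.19 to 0.21.

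HFSC GR WT replicate 1, at 4503900 tags, is the least precise library, and Abcg1 in HFSC and Nr1h3 in Treg cells rest on few tags.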
